A study of Mus musculus with 3 samples.

Results

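The 8 genes described here encode transcription factors that mark kidney tubule cells: Hnf4a, Pax8, Pax2, Ppara, Nr1h4, Maf, Tfcp2l1 and Gata3. They were taken by name from the 27998 genes of the count tables, and all 8 had UMIs (unique molecular identifiers, each standing for a captured RNA molecule) in kept cells. Kidneys of 2 Aoah-/- mice and 1 WT mouse, 6 to 8 weeks of age, were collected 14 days after folic acid (FA) injection and profiled by droplet scRNA-seq with 1 library per mouse. Acyloxyacyl hydrolase (AOAH) is a lipase that inactivates bacterial lipopolysaccharide. The knockout is present in all cells of the animal and had been backcrossed to C57BL/6J, and the WT mouse came from the same heterozygous breeding. The WT group is a single library, and no kidney without FA was analysed here, so a level below describes the kidney after FA injury.

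Hepatocyte nuclear factor 4 alpha (Hnf4a) is a nuclear receptor that drives the maturation of proximal tubular epithelial cells (PTECs), and it acts there with the fatty acid sensor PPAR alpha (Ppara), the bile acid receptor FXR (Nr1h4) and the leucine zipper factor c-Maf (Maf). Pax2 and Pax8 are paired box factors that specify the kidney lineage in the embryo and remain in parts of the adult nephron. Tfcp2l1 and Gata3 belong to the distal end of the nephron: Tfcp2l1 patterns principal and intercalated cells, and Gata3 is needed for the nephric duct and is also the master factor of type 2 helper T cells.

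Wherever 3 values follow each other below, the first and second belong to the knockout animals numbered 2 and 3 and the last to WT. The libraries held 167222984, 161015021 and 158551992 UMIs in 25516, 24693 and 23072 barcodes. After cells with fewer than 200 genes or more than 50% mitochondrial UMIs were left out, 21368, 19692 and 18202 cells remained. The shallowest barcode held 500, 1672 and 500 UMIs, so the files do not start at the same depth, and pairs of libraries shared 171 to 176 barcodes. Aoah itself had 6.75 and 6.19 UMIs per 1000000 (CPM) in the Aoah-/- libraries and 18.2 in the WT library, lower but not absent. A 3′ tag outside the deleted part of the gene would still be counted, but the source of these UMIs was not tested. Cells were clustered without the 8 genes and named from marker lists, and each class name below stands for cells like that type. A level is a gene's share, in CPM, of all UMIs that a library's cells of a class held together.

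9 nephron classes were compared. PT S1/S2, the convoluted and early straight proximal tubule, held 3156, 2265 and 2971 cells and had the highest level of 7 of its 8 markers. PT S3, the late straight segment, held 2921, 2314 and 4367 cells and led for 6 of 9 markers. Injured PT held 178, 357 and 110 cells and led for 7 of 14 injury markers, among them Havcr1 and Sox9. Its leading genes included Ccl2, Vcam1, C3 and Cp but also the stromal genes Tagln and Mgp. The 8 fibroblast markers summed to 69.0, 52.5 and 52.3 CPM in it, against at most 6.91 in the PT segments and 12120 to 18500 in fibroblasts. Type B intercalated cells had a like sum of 78.8, 53.5 and 58.9 CPM, so the sum was not particular to injured PT. Tagln was at 391, 342 and 270 CPM in injured PT and at most 0.753 in type B intercalated cells. Mgp was at 239, 433 and 802 CPM in injured PT and at most 7.28 in type B intercalated cells. Clusters of resolution 2 placed 143 of the 645 injured PT cells with fibroblasts. A further cluster of 551, 703 and 361 cells was led by the injury genes Lcn2, Clu, Wfdc2 and Krt18 and by Umod, a marker of the thick ascending limb. No PT marker was at 2-fold or more in it, and it is called injured tubule here. The other classes were thick ascending limb (TAL), distal convoluted tubule (DCT), principal cells and type A and type B intercalated cells, which led for 6 to 9 of their 8 or 9 markers. Type B intercalated cells of Aoah-/- mouse 3 had a median of 4108 UMIs against 18140 and 18688 in the other libraries.

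The annotation of GENCODE M21 on GRCm38 places Hnf4a at chr2:163506808-163572910 on the plus strand, where the antisense gene Hnf4aos (chr2:163493807-163541720, minus strand) overlaps its start. Pax8 lies at chr2:24420560-24475599 (minus), Pax2 at chr19:44756045-44837871 (plus), Ppara at chr15:85734983-85802819 (plus), Nr1h4 at chr10:89454234-89533585 (minus), Maf at chr8:115682942-115707794 (minus), Tfcp2l1 at chr1:118627945-118685168 (plus) and Gata3 at chr2:9857078-9890034 (minus). RefSeq start sites on GRCm38.p6 were matched for 7 of the 8 genes, in 10 windows of the 250 bases before a start; Maf was not matched. The 3 windows below are shown because they hold a motif searched for: those of Hnf4a and Nr1h4, both highest in PT, and that of Tfcp2l1, highest in intercalated cells. Capitals mark the motifs, which are spelled out after the sequences, or their reverse complements.
Hnf4a, upstream start (chr2:163506607-163506856, plus): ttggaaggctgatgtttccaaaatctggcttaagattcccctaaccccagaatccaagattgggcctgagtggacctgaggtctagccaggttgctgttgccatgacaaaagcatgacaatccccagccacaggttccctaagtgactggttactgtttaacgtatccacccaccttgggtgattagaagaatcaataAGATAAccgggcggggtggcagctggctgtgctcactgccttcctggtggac
Nr1h4 (chr10:89506659-89506908, minus): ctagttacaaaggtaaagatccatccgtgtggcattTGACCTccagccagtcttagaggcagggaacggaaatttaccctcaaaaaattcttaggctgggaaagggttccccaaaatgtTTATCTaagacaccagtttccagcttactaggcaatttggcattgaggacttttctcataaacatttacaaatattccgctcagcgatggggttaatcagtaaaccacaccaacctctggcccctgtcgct
Tfcp2l1 (chr1:118627695-118627944, plus): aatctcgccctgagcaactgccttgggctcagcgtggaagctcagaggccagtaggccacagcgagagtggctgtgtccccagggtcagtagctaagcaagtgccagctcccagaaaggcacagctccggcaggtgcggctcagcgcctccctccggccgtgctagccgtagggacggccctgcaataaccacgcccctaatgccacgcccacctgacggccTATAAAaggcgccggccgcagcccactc
Both strands were searched. The Nr1h4 window lies inside the gene as annotated above, so the start used for it is an internal one. The windows of Ppara and Gata3, the downstream Hnf4a window and a Pax2 window lie inside their genes too. The upstream Hnf4a window runs past the annotated start of that gene. The Nr1h4 window held AGGTCA, the core letters of many nuclear receptor sites, 214 bases before the start, as 14% of 32851 windows of the same length did, and, 131 bases before, AGATAA, letters read by the protein family of Gata3, both as the reverse complement. The latter was also in the upstream Hnf4a window 52 bases before the start and in 9.99% of all windows. The TATAAA of Tfcp2l1 began 28 bases before the start, and 12.4% of windows held one. None of these 3 motifs was in the downstream Hnf4a window or in the windows of Pax8, Pax2, Ppara or Gata3. These are matches of letters only, and counting at the 3′ end of transcripts cannot tell the Hnf4a starts apart.

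Hnf4a was highest in the proximal tubule. Its level in PT S1/S2 was 231, 224 and 282 CPM, or 245 ± 31.6 (SD, n = 3 libraries, knockout and WT together, as for every mean below). PT S3 had 198, 206 and 228 CPM (211 ± 15.5), and the ranges of the segments overlapped. Injured PT had 108, 155 and 127 CPM (130 ± 24.0), below every value of both segments and above every value of the distal classes. The 6 distal and injured tubule classes had means of 13.4 to 25.5 CPM, and T and B lymphocytes, which should lack the gene, had 10.8, 15.1 and 13.2 and a mean of 47.7. Cells were also thinned to 1000 UMIs each, which left out 456, 0 and 255 shallower cells of PT S1/S2, 41, 0 and 17 T lymphocytes and at most 1 injured PT or principal cell per library. Then 19.4%, 18.6% and 22.97% of PT S1/S2 cells held an Hnf4a UMI, against 0.977%, 1.46% and 1.43% of T lymphocytes. Before thinning, the shares were 60.1%, 68.4% and 67.7% in PT S1/S2, at median depths of 5498.5 to 6639 UMIs, and 2.68%, 4.05% and 3.20% in T lymphocytes, at 2483.5 to 2978 UMIs.

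Free RNA from broken PTECs enters all droplets, so each gene was also counted against Slc34a1, the sodium phosphate cotransporter that is made by PTECs. A gene that reaches other cells in free RNA alone keeps the ratio it has in PTECs. Hnf4a had 57.7 UMIs per 1000 Slc34a1 UMIs in PT S1/S2 and 63.3 in PT S3. In the 6 distal and injured tubule classes it had means of 51.0 to 63.8, in T lymphocytes 55.9, in B lymphocytes 63.7 and in macrophages 60.3. Outside the PT its ratio was thus near that of PTECs in these classes, while neutrophils had 87.8 (58.2 to 120.5), and the part of free RNA was not tested. Injured PT had 141 ± 25.7, where Slc34a1 itself was lower (889, 913 and 959 CPM, against 4066, 4529 and 4217 in PT S1/S2). Hnf4aos, which shares genomic positions with Hnf4a, had 8.15, 9.40 and 12.7 CPM in PT S1/S2 and 19.4, 17.3 and 21.9 in PT S3, well under the Hnf4a level.

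**Figure D1:**
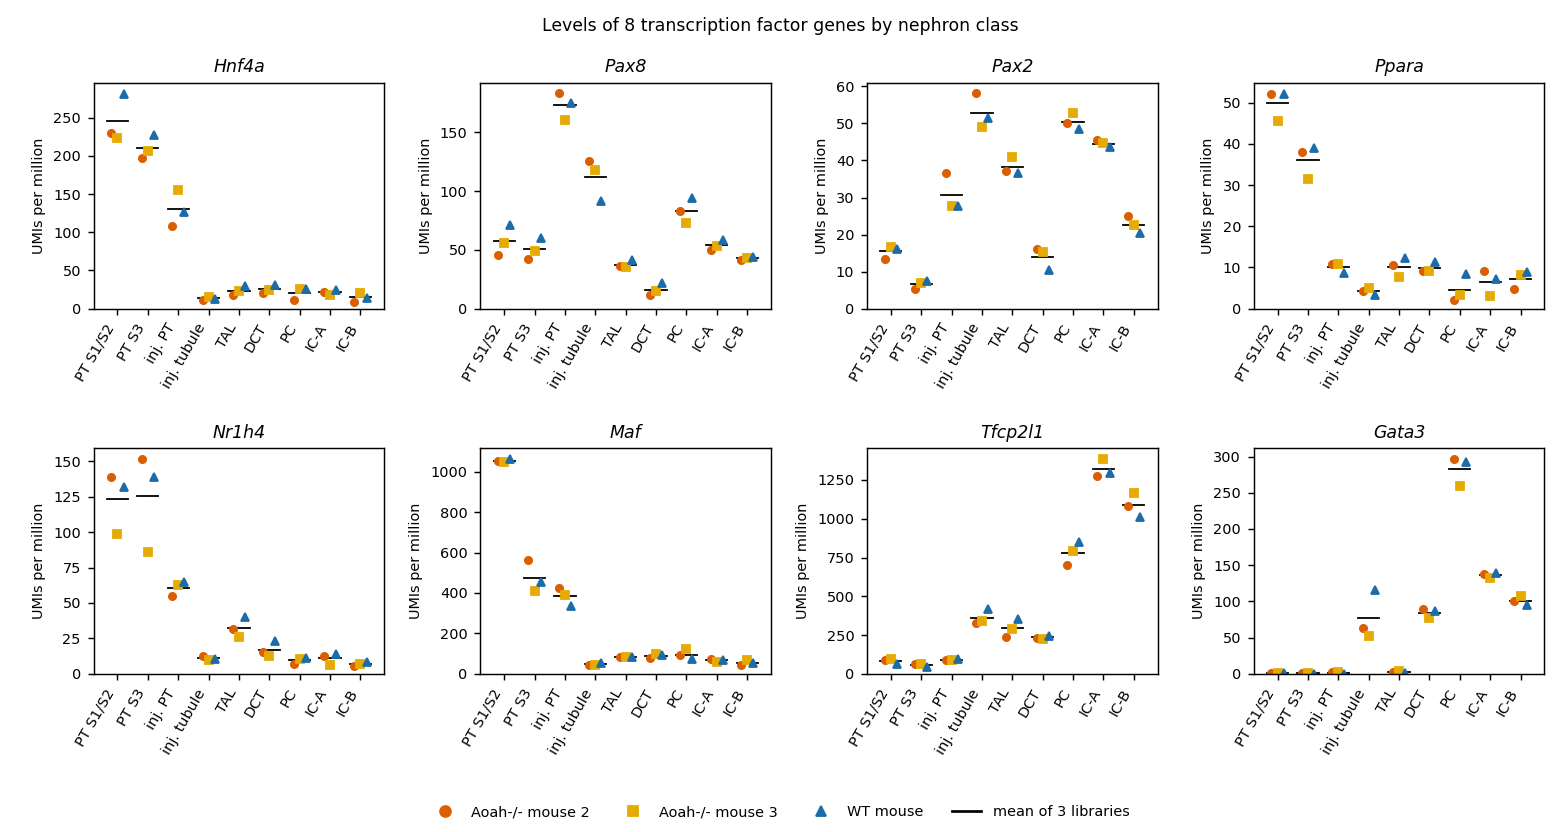
Level of each of the 8 genes (vertical axis, UMIs per 1000000) in 9 nephron classes (horizontal axis; inj., injured; TAL, thick ascending limb; DCT, distal convoluted tubule; PC, principal cell; IC, intercalated cell). Points are the 3 libraries and bars their mean. Hnf4a, Ppara, Nr1h4 and Maf were highest in the PT classes, Pax8 in injured PT at a mean of 173, Pax2 in injured tubule at 52.9, Tfcp2l1 in type A intercalated cells at 1318 and Gata3 in principal cells at 282.

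Maf was far higher in PT S1/S2 than in PT S3. PT S1/S2 had 1050.5, 1046.8 and 1063.4 CPM, PT S3 had 561, 410 and 455 CPM, and injured PT had 424, 389 and 335 CPM. The S1/S2 values lay within a narrow band far above all others, while the S3 and injured PT values overlapped. Distal classes had means of 46.8 to 95.2 CPM at 196 to 303 UMIs per 1000 Slc34a1 UMIs, a span that includes the 247 of PT S1/S2. Immune cells also make this factor: T lymphocytes had 220, 246 and 323 CPM and macrophages 273, 308 and 252, at 1135 and 582 UMIs per 1000 Slc34a1 UMIs, whereas B lymphocytes had 215, close to the PT ratio.

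Ppara was high in uninjured PT and low in injured PT. PT S1/S2 had 52.2, 45.5 and 52.2 CPM, PT S3 had 38.0, 31.5 and 38.9, and the segments did not overlap. Injured PT had 10.9, 10.8 and 8.61 CPM, and its mean of 10.1 was within the 4.22 to 10.2 of the distal and injured tubule means. Per 1000 Slc34a1 UMIs, Ppara stood at 11.8 in PT S1/S2, 10.9 in PT S3, 11.0 in injured PT and 11.5 in B lymphocytes, so Ppara and Slc34a1 were lower in injured PT in like proportion. In TAL and DCT this ratio was 24.2 and 21.9, in type B intercalated cells 26.8, in injured tubule 19.4 and in urothelial cells 56.6. Every library of these classes was above every PT library. Type A intercalated cells (18.9) and principal cells (14.2) overlapped the PT range.

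Nr1h4 was at like levels in both segments, with 139, 98.5 and 132 CPM in PT S1/S2 and 152, 85.7 and 139 in PT S3. Aoah-/- mouse 3 was the low library in each. Injured PT had 54.6, 62.7 and 64.9 CPM, below all values of the segments. TAL came next with 31.7, 25.8 and 40.3 CPM, at 50.8 to 97.1 UMIs per 1000 Slc34a1 UMIs, above the 21.8 to 49.2 of the PT segments in every library. The remaining distal classes had means of 6.99 to 17.2 CPM and ratios of 26.8 to 51.6, which overlapped the PT range.

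**Figure D2:**
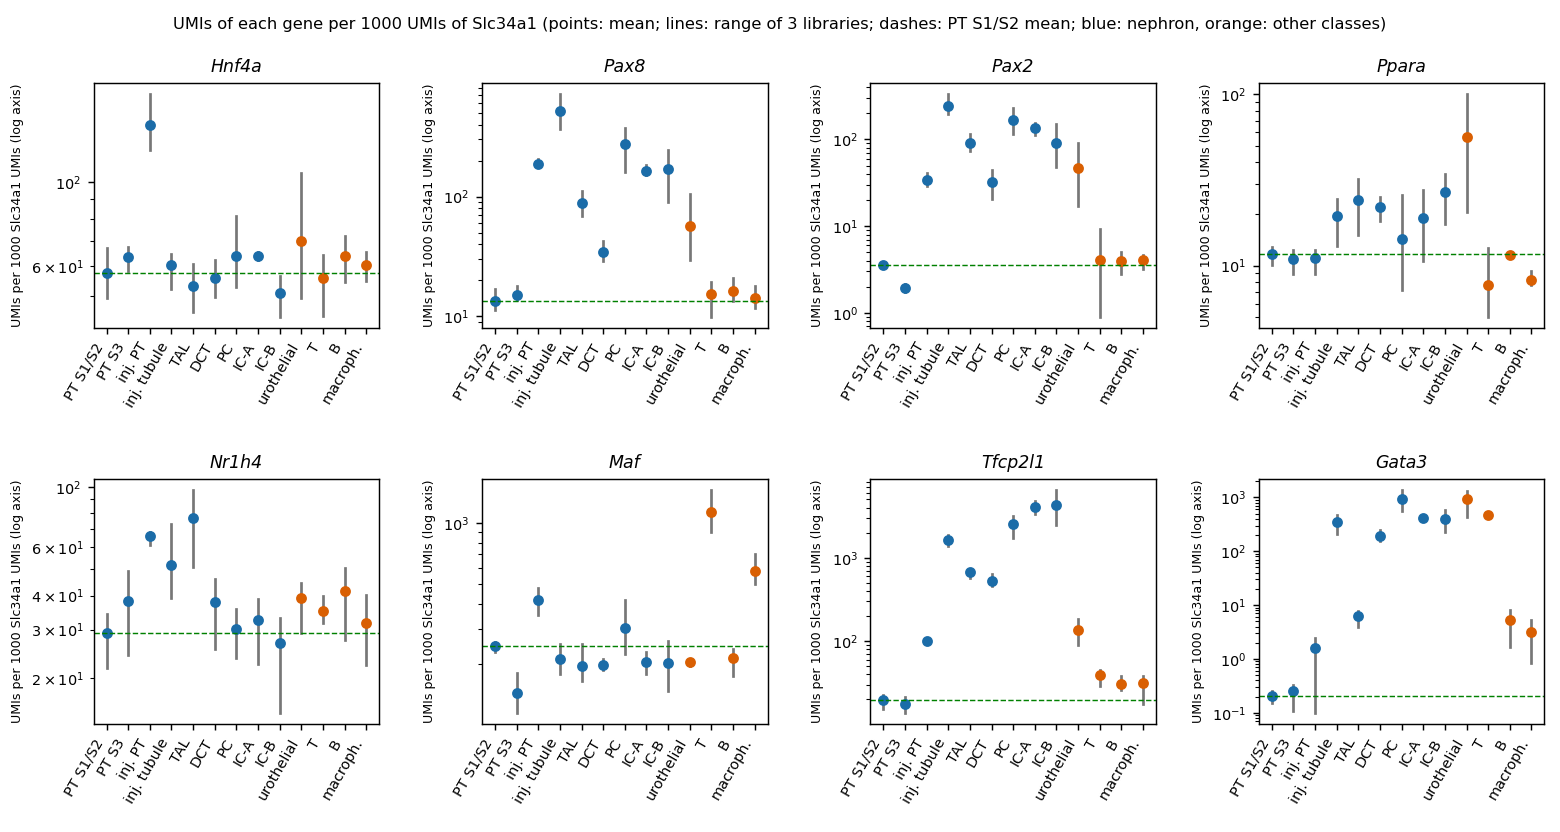
UMIs of each gene per 1000 UMIs of Slc34a1 (vertical log axis) in nephron classes (blue) and in urothelial cells, T and B lymphocytes and macrophages (orange). Points are means and lines the range of 3 libraries, dashes mark the PT S1/S2 mean, and a value of 0 is drawn at 0.1. Hnf4a was within 51.0 to 69.8 in all classes shown but injured PT, whereas Pax8 reached 520 in injured tubule against 13.5 in PT S1/S2.

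Pax8 was highest where tubule cells carried injury genes. Injured PT had 183, 161 and 175 CPM (173 ± 11.3), above every library of every other class. Injured tubule had 126, 118 and 91.9 CPM, overlapping principal cells with 82.8, 72.9 and 93.9 CPM. PT S1/S2 had 46.0, 55.6 and 71.6 CPM and PT S3 42.3, 49.0 and 60.2, with class means of 57.7 and 50.5 beside 53.8 in type A intercalated cells. Type B intercalated cells had 42.9, TAL 37.5 and DCT 15.9 CPM on average. Thinned to 1000 UMIs, 14.7%, 16.3% and 14.6% of injured PT cells held a Pax8 UMI, against 5.30%, 4.99% and 6.04% in PT S1/S2 and 0.305%, 0.281% and 0.191% in T lymphocytes. Per 1000 Slc34a1 UMIs, Pax8 stood at 13.5 in PT S1/S2, 15.5 in T lymphocytes and 14.3 in macrophages, at 188 in injured PT, and at 520 ± 177 in injured tubule.

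Pax2, the other paired box gene, had its highest level in injured tubule (58.2, 49.0 and 51.6 CPM), which overlapped principal cells (50.1, 52.8 and 48.6). Type A intercalated cells followed with 45.6, 44.6 and 43.5 CPM and TAL with 37.2, 41.0 and 36.5. Injured PT had 36.7, 27.8 and 27.8 CPM, and type B intercalated cells had a mean of 22.6. The uninjured PT was low, at 13.5, 16.7 and 16.2 CPM in S1/S2 and 5.41, 6.84 and 7.37 in S3, with DCT (13.9) between. The S3 values lay below those of every other nephron class.

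Tfcp2l1 was higher toward the distal nephron. PT S1/S2 had 92.6, 96.2 and 64.9 CPM, PT S3 had 65.7, 65.1 and 46.8, and injured PT had 91.8, 92.8 and 94.05. DCT, TAL and injured tubule had means of 236, 294 and 363 CPM. Principal cells had 704, 794 and 847 CPM, type B intercalated cells 1079, 1169 and 1011, and type A intercalated cells 1275, 1386 and 1294, and these last 3 classes did not overlap. PT S1/S2 held 19.8 UMIs of the gene per 1000 Slc34a1 UMIs, less than the 30.5 to 39.0 in lymphocytes and macrophages. Thinned to 1000 UMIs, 9.89%, 9.10% and 5.71% of PT S1/S2 cells held a Tfcp2l1 UMI, against 1.10%, 0.844% and 0.382% of T lymphocytes. In injured PT the ratio was 101 ± 2.66.

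Gata3 was highest in principal cells and low in the PT and TAL. PT S1/S2 and S3 had means of 0.890 and 0.839 CPM, and TAL 2.76. Injured PT had 4 and 8 UMIs in the Aoah-/- libraries and 0 UMIs in the WT library, which allows up to 1.99 CPM (3 counts). DCT had 89.6, 76.9 and 86.3 CPM, type B intercalated cells 100.3, 107.7 and 95.4, type A intercalated cells 137, 133 and 139, and principal cells 296, 259 and 292. Injured tubule was the class in which the libraries were farthest apart, with 63.0, 52.3 and 116 CPM. Outside the nephron, urothelial cells had 314, 294 and 261 CPM and T lymphocytes 106, 125 and 105, while B lymphocytes and macrophages had 3.71 and 1.46 on average. Thinned to 1000 UMIs, 25.6%, 19.5% and 21.1% of principal cells held a Gata3 UMI, against 0.301% and 0.211% of macrophages in Aoah-/- and 0 of 845 in WT, which allows a share of up to 0.355%, after 666, 0 and 858 shallower macrophages were left out.

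For each member, the genes with the most similar profile over the 9 classes were listed by Pearson's r of log2(CPM + 1). A gene entered with 20 CPM or more in any of the classes, which left 8184. These are descriptions over 9 points that share cells, free RNA and depth. Hnf4a was nearest to Abcg2, Dao and Xylb (r 0.997 to 0.998), Ppara to Hsd3b2, Tango2 and Slc22a28 (0.984 to 0.989), Nr1h4 to Slc1a1, Fggy and Gucd1 (0.985 to 0.994), and Maf to Gsta2, Slc2a2 and Slc7a9 (0.992 to 0.995). Pax8 was nearest to Ift88, Cdk6 and Diablo (0.968 to 0.983) and Pax2 to Kansl1, Sema4b and Gtpbp2 (0.979 to 0.983). Tfcp2l1 was nearest to Fbxo33, Tmem117 and Bcl2l2 (0.973 to 0.979), and Gata3 to Tfap2a, Scnn1b and Rhcg (0.979 to 0.991), which encode a transcription factor, a sodium channel subunit and an ammonia transporter. Among the members, Hnf4a went with Maf (0.985), Nr1h4 (0.952) and Ppara (0.886), Tfcp2l1 with Gata3 (0.867), and Hnf4a against Tfcp2l1 (-0.868).

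Injured PT was then set against uninjured PT (S1/S2 and S3 summed) in each library as a log2 ratio of CPM + 1. Clusters chose these cells, so the differences are a description without a test. The median of the 9041 genes at 10 CPM or more in either class was 0.52, and 4.84% of them were at least 2-fold lower and 20.5% at least 2-fold higher in all 3 libraries. Pax8 was higher by 2.03, 1.61 and 1.43 (mean 1.69 ± 0.31) and Pax2 by 1.84, 1.21 and 1.33 (1.46 ± 0.33), each at least 2-fold in all 3 libraries. Ppara was lower in all, at -1.96, -1.73 and -2.22 (-1.97 ± 0.24), the member with the largest difference and at least 2-fold in every library. Hnf4a was at -0.99, -0.46 and -0.95 (-0.80 ± 0.29), Nr1h4 at -1.39, -0.54 and -1.06 (-0.999 ± 0.43) and Maf at -0.94, -0.86 and -1.001 (-0.93 ± 0.07). Aoah-/- mouse 3 had the smallest difference for Hnf4a, Nr1h4, Maf and Ppara. Tfcp2l1 was at 0.20, 0.22 and 0.81 (0.41 ± 0.35), near the median of all genes, and Gata3 was under 10 CPM in both classes. With clusters of resolution 2 the differences of Hnf4a (-0.38), Maf (-0.59), Ppara (-1.29), Pax8 (1.26) and Pax2 (1.03) were smaller. Without the 143 injured PT cells that these clusters placed with fibroblasts, an analysis added after the data were seen, the means were Hnf4a -0.58, Nr1h4 -0.82, Maf -0.85, Ppara -1.76, Pax8 1.61 and Pax2 1.31.

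The genes that these factors act on or with were described from lists. Of 22 PPAR alpha target genes 21 were measured; 10 were at least 2-fold lower in injured PT in all libraries and 1 higher, with a median of -0.94. The fatty acid hydroxylases Cyp4a14 (-3.60), Cyp4a10 (-3.27) and Cyp4a12a (-3.19) were lowest, while Pdk4 (1.48), which holds back pyruvate oxidation, the lipid droplet protein Plin2 (0.91) and Acot1 (0.35) were higher. All 20 PT transport and endocytosis genes were lower, 12 of them at least 2-fold in all libraries (median -1.68). Lowest were the anion transporters Slc22a8 (-3.90) and Slc22a6 (-3.15) and the dicarboxylate transporter Slc13a3 (-3.21). Many genes of this list, these transporters among them, are also markers that named the PT classes. Lower levels outside the uninjured PT were thus partly fixed by the naming. Of 4 FXR targets measured, the exporter Abcc2 (-1.53) was at least 2-fold lower and Slc51b was at -0.82, whereas the exporter Abcc4 was at 1.32 (list median -0.36).

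The counts of other regulators stand against the 20.5% of all genes that were at least 2-fold higher. Of 18 other nephron transcription factors, 3 were at least 2-fold higher and 0 lower (median 0.57): Foxc1 (4.44), Elf3 (3.29) and Ehf (3.27). Lower in all libraries were Mlxipl (-0.64) and Lhx1 (-0.59). Of 17 nuclear receptor partners and cofactors, 1 was at least 2-fold higher in all libraries (median 0.45). Nr2f2 (1.08) and Nrip1 (0.98) were higher too, and Ppard (-1.09), Nr1h3 (-0.51) and Ppargc1a (-0.49) lower. Injury and repair factors were all 19 higher, 16 at least 2-fold (median 3.54), led by Sox9 (6.35), Sox4 (6.18) and Nupr1 (5.97); Sox9 is also 1 of the markers that named the class. Of 3 collecting duct genes measured, Jag1 was higher (4.39) and Aqp3 lower (-2.71). The 8 immune markers measured had a median of 0.74, with 0 at least 2-fold in all libraries.

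**Figure D3:**
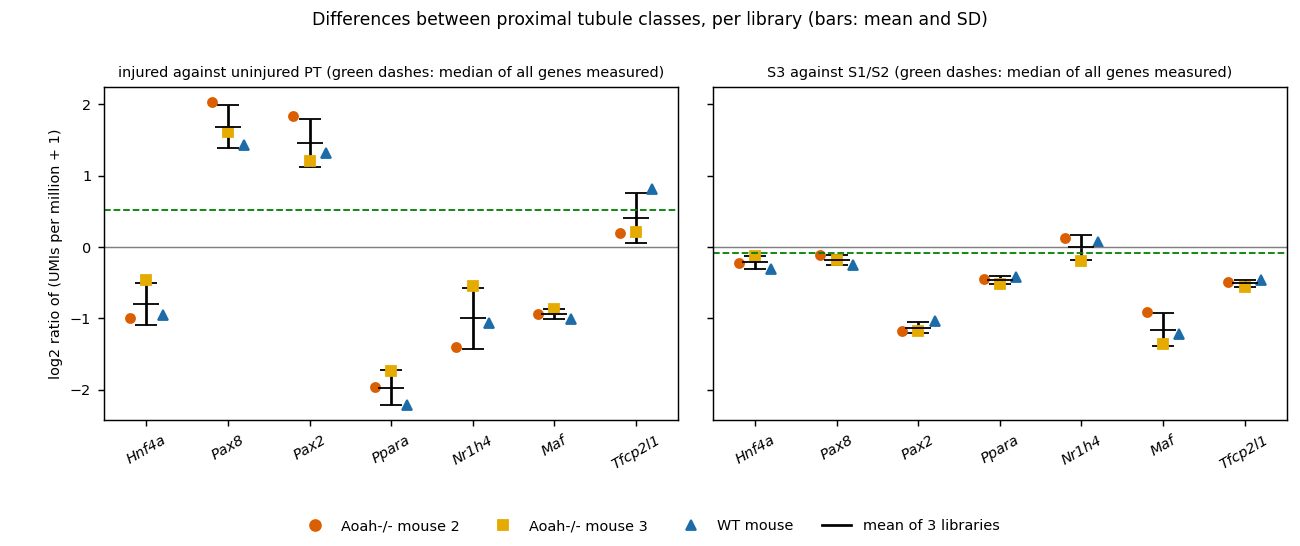
Log2 ratio of CPM + 1 (vertical axis) for 7 genes, injured against uninjured PT on the left and S3 against S1/S2 on the right. Points are the 3 libraries, bars the mean and SD, and green dashes the median of all genes measured (0.52 and -0.08). Pax8 and Pax2 lie above and Hnf4a, Ppara, Nr1h4 and Maf below that line in every library on the left.

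Between the uninjured segments, S3 was set against S1/S2 in the same way over 7519 genes (median -0.08), of which 3.15% were at least 2-fold lower and 2.38% at least 2-fold higher in all libraries. Maf was lower in S3 by ratios of -0.90, -1.35 and -1.22 (mean -1.16 ± 0.23) and Pax2 by -1.18, -1.17 and -1.04 (-1.13 ± 0.08). Tfcp2l1 (-0.50 ± 0.05), Ppara (-0.46 ± 0.05), Hnf4a (-0.21 ± 0.09) and Pax8 (-0.18 ± 0.06) were lower by less, and Nr1h4 was at 0.12, -0.20 and 0.07. Among cells with at most 20% mitochondrial UMIs, Tfcp2l1 (-0.82), Ppara (-0.70), Pax8 (-0.53) and Hnf4a (-0.44) were farther apart, and with clusters of resolution 2 Pax8 was at -0.0033. Ppara and its targets differed in opposite directions: of 21 PPAR alpha targets, 18 were higher in S3 in all libraries and 8 of them at least 2-fold (median 0.85), with Cyp4a14 at 1.89, Cyp4a10 at 1.86 and Acaa1b at 1.48. Among other nephron factors the Iroquois gene Irx3 (2.85) and Pou3f3 (2.51) were higher in S3 and Lhx1 (-0.63) lower (15 measured, median 0.17). The coactivator Ppargc1a (-0.98) and the corepressor Nrip1 (-0.74) were lower, as were 11 of 16 cofactors in all libraries (median -0.21). The 20 transport genes, which include segment markers, had a median of -0.55, the 4 FXR targets 0.11, the 13 injury factors -0.54, the 4 immune markers -0.10 and the 1 collecting duct gene measured, Aqp3, -0.22.

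Each PT segment consisted of 2 clusters that differed in the nuclear transcript Malat1, and most members differed with it. In S1/S2, cluster 0 had 77650 CPM of Malat1 and a median mitochondrial share of 16.03%, and cluster 1 had 15520 CPM and 27.7%. Pax8 was at 91.8 ± 6.78 CPM in cluster 0 and 28.1 ± 3.59 in cluster 1, Ppara at 71.1 ± 8.58 and 33.5 ± 3.98, Nr1h4 at 171 ± 42.3 and 87.0 ± 14.6, and Hnf4a at 304 ± 24.7 and 197 ± 18.5. Tfcp2l1 was at 116 ± 39.4 and 63.8 ± 6.65 and Maf at 1229.5 ± 38.2 and 904 ± 36.6. In S3, cluster 5 had 40371 CPM of Malat1 and cluster 6 had 2582. Pax8 again stood apart (65.9 ± 10.5 against 25.4 ± 3.05 CPM), and Ppara was at 42.3 ± 5.26 and 26.2 ± 2.26, whereas Nr1h4 overlapped (130 ± 35.7 and 119 ± 35.7). Injured PT had 40880, 37640 and 28830 CPM of Malat1. Levels of these members were thus higher in the clusters with more Malat1, and its part in the differences between classes was not tested.

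**Figure D4:**
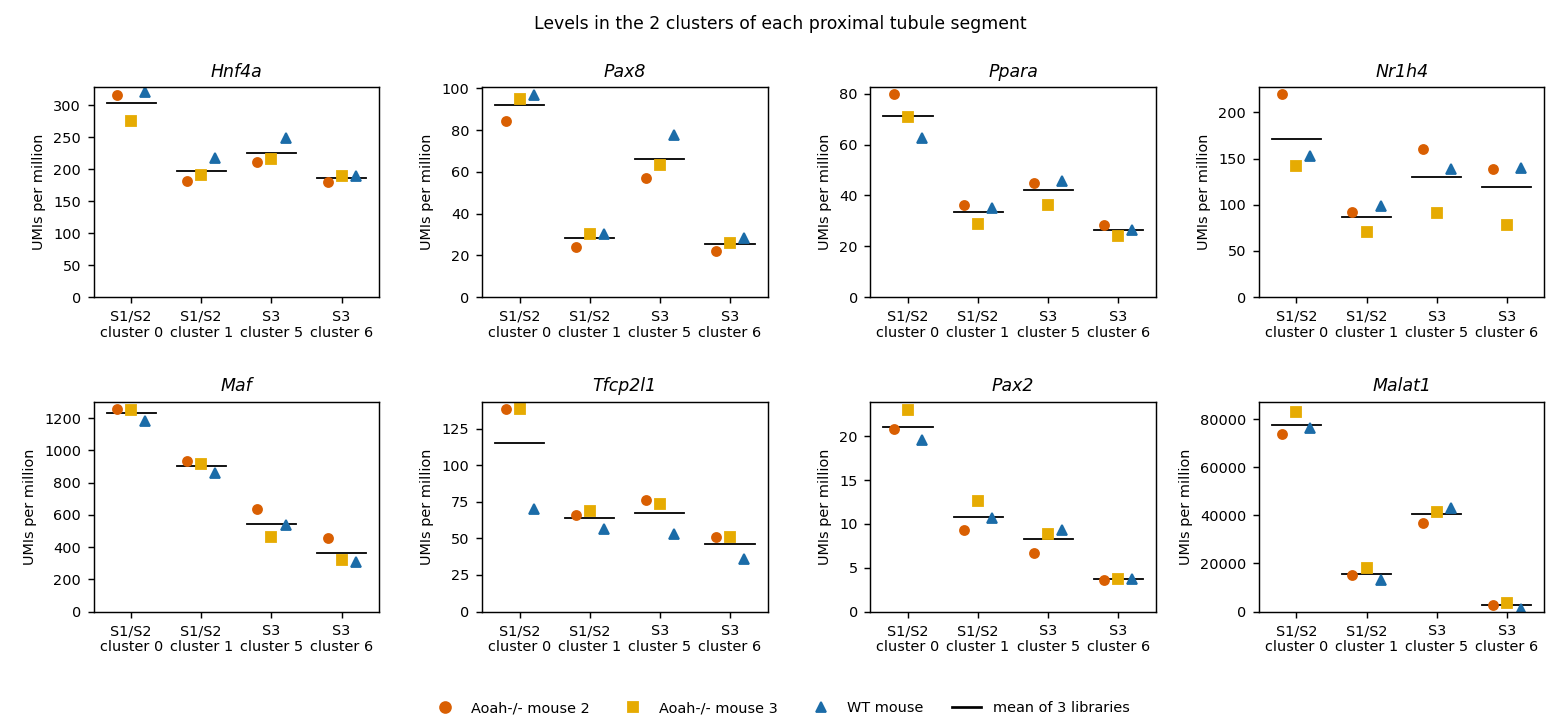
Levels (vertical axes, UMIs per 1000000) of 7 members and of Malat1 in the 2 clusters of PT S1/S2 (0 and 1) and of PT S3 (5 and 6). Points are the 3 libraries and bars their mean. Pax8 was at 91.8 and 28.1 in the S1/S2 clusters and at 65.9 and 25.4 in the S3 clusters, in the order of Malat1.

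Aoah-/- was compared with WT in each class on summed UMIs with edgeR's quasi-likelihood test, in which a member counts as changed at a Benjamini-Hochberg adjusted p under 0.05 over all genes of the class. With 1 WT library the spread comes from the 2 Aoah-/- libraries and from other genes. In injured PT and principal cells the fit took it from other genes alone. Of 71 pairs of a member and a class that could be tested, 1 passed and 17 had an unadjusted p under 0.05, 6 higher and 11 lower in Aoah-/-; DESeq2 called 2. Of all genes tested in the 9 classes, 13.1% had an unadjusted p under 0.05, from 6.6% in type B intercalated cells to 22.8% in PT S1/S2. The shares of all genes called in these classes were 0.814% in PT S1/S2, 1.34% in PT S3, 1.84% in injured PT, 1.84% in injured tubule, 3.86% in TAL, 0.574% in DCT, 1.48% in principal cells, 1.03% in type A and 0.0797% in type B intercalated cells. Immune marker genes (12 genes, summed) were higher in both Aoah-/- libraries than in WT in 8 of these 9 classes, at 115 to 498 CPM against 41.1 to 139.5, and at least 10 of the 12 had UMIs in every class and library. The exception was type B intercalated cells (233, 445 and 244 CPM), and their part in the differences below was not tested.

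The pair that passed was Gata3 in injured tubule. It had 353 and 348 UMIs in the Aoah-/- libraries (63.0 and 52.3 CPM) and 536 in the WT library (116 CPM), a log2 difference of -0.99 ± 0.16 (SE, 95% interval -1.33 to -0.64; edgeR adjusted p = 0.0082). In the same class the collecting duct genes Scnn1g (29.5, 16.8 and 70.0 CPM), Fxyd4 (16.1, 24.7 and 57.8) and Scnn1b (45.5, 42.9 and 114) were lower, at -1.59, -1.47 and -1.35, and 4 of 14 collecting duct genes passed as lower in all. Tfap2a, whose profile was nearest to that of Gata3, was lower, at -0.94, while the Henle loop factors Irx1 (1.28) and Irx2 (0.90) and Foxc1 (0.85) were higher; of 30 other nephron factors 3 passed as higher and 1 as lower. Umod, the TAL marker, had 4462, 4000.4 and 3509.8 CPM in this class, and 9 of 12 immune markers passed as higher. The part of the mix of distal cell types in the Gata3 difference was not tested. With clusters of resolution 2 the difference was -1.07 and did not pass (edgeR adjusted p = 0.089), the highest of 1.21e-08 to 0.089 over 8 alternative analyses.

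For Gata3 and Tfcp2l1 in the classes where each was highest, the intervals included 0. Principal cells had 296 and 259 CPM in the Aoah-/- libraries and 292 in WT, a log2 difference of 0.02 with a 95% interval of -0.30 to 0.33 (adjusted p = 0.99). Tfcp2l1 in type A intercalated cells was at 0.08 (interval -0.18 to 0.35).

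Tfcp2l1 was higher in Aoah-/- in both PT segments and lower in TAL and injured tubule, with no pair past the threshold, and in type B intercalated cells it had 1079 and 1169 against 1011 CPM (0.17). In PT S1/S2 it had 92.6 and 96.2 CPM against 64.9 (0.59 ± 0.08, adjusted p = 0.061) and in PT S3 65.7 and 65.1 against 46.8 (0.50 ± 0.10, adjusted p = 0.079). The S1/S2 difference was 0.54 to 0.82 over 8 alternative analyses. It passed only in those that called more genes of this class than the main analysis did. The values were 138.4 and 138.3 against 70.1 CPM within cluster 0 and 66.3 and 68.9 against 56.3 within cluster 1. In TAL the gene had 238 and 287 CPM against 356 (-0.39 ± 0.12, adjusted p = 0.077) and in injured tubule 329 and 338 against 421 (-0.31 ± 0.13, adjusted p = 0.40).

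Pax8 was lower in both Aoah-/- libraries than in WT in the PT segments and all distal classes and higher in injured tubule, with no pair past the threshold. PT S1/S2 had 46.0 and 55.6 CPM in Aoah-/- against 71.6 in WT (-0.45 ± 0.12, adjusted p = 0.13). Within its cluster 0 the values were 84.1 and 94.7 against 96.7 and within cluster 1 24.0 and 30.2 against 30.2, so Aoah-/- mouse 3 was close to WT there. Among cells with at most 20% mitochondrial UMIs the S1/S2 difference was -0.16. PT S3 had 42.3 and 49.0 against 60.2 (-0.38 ± 0.12, adjusted p = 0.17) and DCT 11.7 and 14.6 against 21.4 (-0.72 ± 0.21, adjusted p = 0.20). In injured tubule it had 126 and 118 against 91.9 CPM (0.43 ± 0.15, adjusted p = 0.26). Injured PT, where Pax8 was highest, showed 0.01 with an interval of -0.33 to 0.35. Malat1 was lower in both Aoah-/- libraries than in WT in PT S1/S2 (36560 and 43810 against 52260 CPM) and S3 (22470 and 26980 against 28310), which moved with Pax8 there, and its part was not tested.

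The estimates for the other PT factors were small in PT, but not all intervals were narrow or included 0. That of Hnf4a in S1/S2 ran from -0.45 to -0.08, with both Aoah-/- libraries lower than WT. Within cluster 0 the gene had 315 and 276 CPM in Aoah-/- against 321 in WT, and within cluster 1 182 and 191 against 217. Among cells with at most 20% mitochondrial UMIs its S1/S2 estimate was -0.16. Hnf4a in S1/S2 was at -0.26 ± 0.07 (adjusted p = 0.14), Ppara in S1/S2 at -0.05 (interval -0.35 to 0.25), Maf in S1/S2 at 0.02 (-0.14 to 0.19) and Nr1h4 in S3 at -0.21 (-0.88 to 0.46), where Aoah-/- mouse 3 was low and Aoah-/- mouse 2 was not. In TAL and DCT, where Hnf4a was near its PT ratio to Slc34a1, it was at -0.51 ± 0.19 and -0.50 ± 0.17 (adjusted p = 0.16 and 0.32), and Nr1h4 at -0.44 ± 0.17 and -0.76 ± 0.21 (adjusted p = 0.18 and 0.16). The PT gene Slc27a2 was lower in Aoah-/- in these 2 classes as well, at -1.18 in TAL and -0.89 in DCT. In TAL the S1/S2 markers Slc6a19 (1.45), Slc5a12 (1.06) and Slc7a7 (0.84) were higher. The 20 transport genes had medians of 0.16 in TAL and -0.07 in DCT. Slc27a2 was higher in PT S3 than in S1/S2 (1530 against 657.5 CPM), whereas Slc5a12 was lower (12.75 against 433.8). The WT library held 4367 S3 and 2971 S1/S2 cells, Aoah-/- mouse 2 held 2921 and 3156, and Aoah-/- mouse 3 held 2314 and 2265. The part of free RNA from the PT segments in these differences was not tested. Maf in principal cells was higher, with 91.2 and 121 CPM against 72.9 (0.64 ± 0.20, adjusted p = 0.077), and Pax2 in DCT had 16.2 and 15.3 against 10.4 (0.57 ± 0.24, adjusted p = 0.46); Pax2 in injured tubule was at 0.08 (-0.29 to 0.44). The 48 pairs not named had adjusted p of 0.20 to 0.996 from edgeR.

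**Figure D5:**
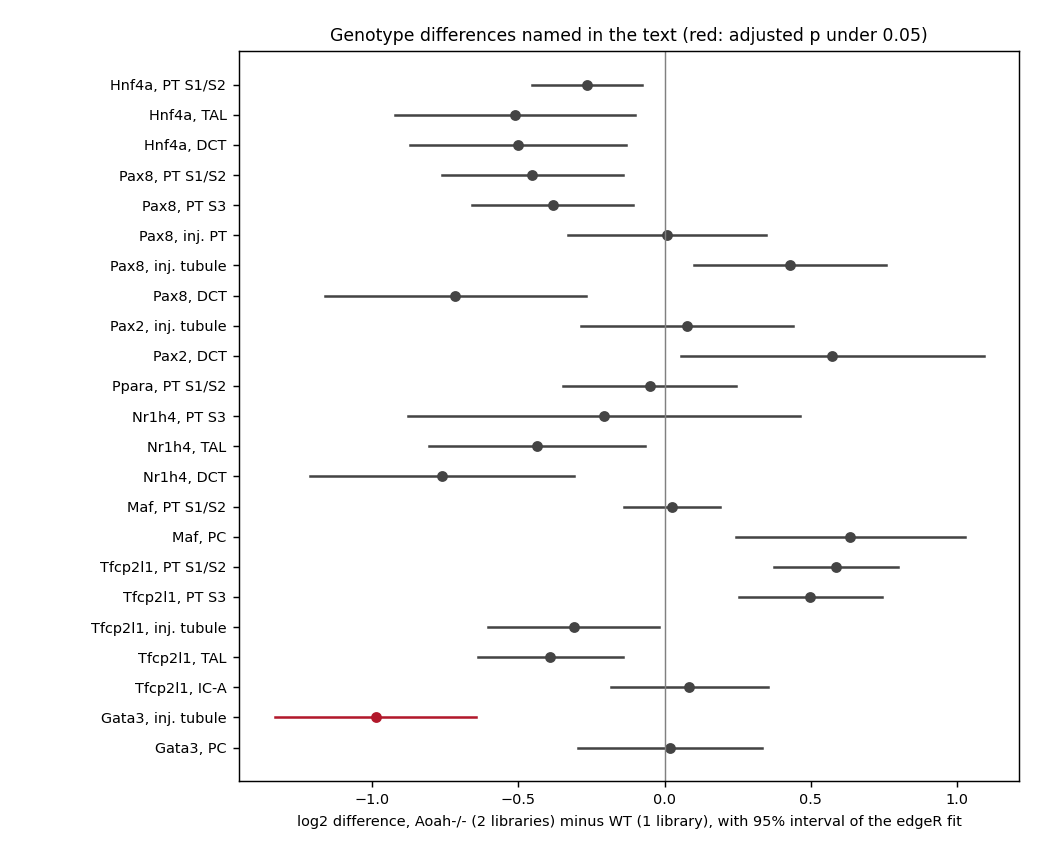
Log2 difference of Aoah-/- (2 libraries) minus WT (1 library) on the horizontal axis for 23 pairs of a gene and a class, with the 95% interval of the edgeR fit. Pairs are those of the class where a gene is highest or with an unadjusted p under 0.05 at 10 CPM or more. Gata3 in injured tubule (red, -0.99) is the pair with an adjusted p under 0.05.

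Genes around these factors passed the test in a few cases. Sox9, named next for PT S1/S2, was far lower there than in injured PT (349, 305 and 324 CPM). The part of free RNA from injured cells in its S1/S2 level was not tested. In PT S1/S2, 5 of 19 injury and repair factors were higher in Aoah-/-, led by Sox9 (4.88 and 5.67 CPM against 0.632, log2 3.09), Egr1 (1.33) and Atf3 (1.01), and 1 of 20 transport genes was lower, the fatty acid transporter Slc27a2 (552 and 575 against 845 CPM, -0.54). Of the 22 PPAR alpha targets, 28 other nephron factors and 18 cofactors tested there 0 passed, with medians of 0.17, 0.21 and -0.09 against 0.01 for all genes; at an unadjusted p under 0.05 stood 3, 12 and 2 of them, against 22.8% of all genes in the class, and DESeq2 called 0. In PT S3, 2 of 18 injury factors were higher, Stat3 (0.71) and Egr1 (0.69), and 0 of 22 PPAR alpha targets passed, 6 of them with an unadjusted p under 0.05 (18.3% of all genes) and 0 called by DESeq2.

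In injured PT, 2 of 20 PPAR alpha targets were lower in Aoah-/-, among them Cyp4a10 (7.45 and 6.81 against 22.5 CPM, -1.63). Transport genes passed in both directions, with Slc22a8 (1.24), Slc6a19 (1.10) and Slc5a12 (1.00) higher and Slc22a6 (-0.65) and Slc27a2 (-0.59) lower among 20. Slc22a6 was at 0.29 with clusters of resolution 2 and at 0.08 without cells holding an immune marker UMI. The repressor Bcl6 (-1.06) and the AP-1 factor Fosl1 (-1.05) were lower, while 9 of 9 immune markers tested passed as higher. DESeq2 called 0 genes of the PPAR alpha, transport, other nephron factor and injury lists in this class and 1 immune marker. The members themselves had a median of 0.11 in this class over 7 tested, against 0.01 for all genes.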

How the data were processed

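Per the labels and the study's methods, kidneys were perfused with cold PBS, digested with collagenase IV and DNase, filtered, freed of erythrocytes and loaded on the Chromium 3′ system. The authors deposited raw UMI counts per gene and barcode for each library, mapped to mm10. Their processing notes name Cell Ranger 3.1.0, STAR and Seurat 4.2.0, whereas the matrix headers name cellranger 6.1.2, so the version is uncertain.

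Barcodes with fewer than 200 genes or more than 50% mitochondrial UMIs (16.3%, 20.3% and 21.1%) were left out, and medians of 3357, 3678 and 3859 UMIs per cell remained. Doublets were kept and no caller was run. UMIs were scaled to 10000 per cell and log transformed, and 2000 variable genes, without the members, Aoah and the MHC class II genes, gave 50 principal components, 15 neighbours and Leiden clusters at resolution 1 (scanpy 1.11.5, igraph 0.11.9). Clusters were named from marker lists, by at least 3 markers at 2-fold or more. Cells left unnamed made up 13.8%, 18.9% and 7.57%. Cluster 2 (2163 of its 2430 cells in Aoah-/- mouse 3) and cluster 27 (1410 of 1520 in Aoah-/- mouse 2) were unnamed and mostly of 1 library. Because cells were clustered, class against class is given without a test, as log2 ratios of CPM + 1 of genes with at least 10 CPM in either class.

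Genotype was tested on UMIs summed per library and class with edgeR 4.0.16 (filterByExpr, TMM, quasi-likelihood F-test, Benjamini-Hochberg adjustment at 0.05), with DESeq2 1.42.0 as an alternative (R 4.3.3). The lone WT library is assumed to vary like the 2 Aoah-/- libraries. On simulated counts for PT S1/S2 (13148 genes), 89% of genes changed by a log2 of 2 and 52% of those changed by 1 were recovered, with 5 false calls. For injured PT (11122 genes) this was 76% and 24%, with 1 false call. Every simulated gene had the same chosen dispersion, and beyond the set changes the libraries differed in depth alone. These shares therefore do not measure recovery or false calls in the real data. Binomial and zero-count limits, at 95% and 3 counts, cover counting error only.

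Named genes were the 8 members, for each the 3 genes most alike over the classes, and from each list at most 3 in each direction by size: by injured against uninjured PT ratio with 1 sign in all libraries, and by genotype change among genes that passed. S3 against S1/S2 genes, the genotype differences of list genes in TAL and DCT, Tagln, Mgp, Aqp3, Malat1, Umod and Slc34a1 were named after their values were seen. The members and lists were chosen with earlier results of these data known. Some genes are counted in their lists but not reported by name here. 2 list genes were not found in the tables. Alternatives were other scalings, filters, depth floors, mitochondrial limits, clusters and DESeq2.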

Additional observations from a re-analysis of the deposited data

Results flagged for a closer look

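For both of the following genes, every Aoah-/- library stood on one side of WT in one class and on the other side in another class, at an unadjusted p under 0.05 in each class, and the differences between classes were not tested. The Aoah-/- minus WT log2 difference of Pax8 in injured tubule exceeded that in PT S1/S2 by 0.881, that in PT S3 by 0.811 and that in DCT by 1.14. For Tfcp2l1, the difference in PT S1/S2 exceeded that in injured tubule by 0.897 and that in TAL by 0.976, and the difference in PT S3 exceeded these by 0.81 and 0.889. All of these rest on 1 WT library. Among cells with at most 20% mitochondrial UMIs the Pax8 difference in PT S1/S2 was -0.16, against -0.45 in the main analysis.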

How the results depend on the processing

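The numbers of genes called depended strongly on the setting, in a design with 1 WT library. No paired analysis was possible with 1 WT library. The edgeR counts of the report were 107 genes in PT S1/S2, 172 in PT S3, 205 in injured PT, 233 in injured tubule, 481 in TAL, 67 in DCT, 152 in principal cells, 113 in type A and 9 in type B intercalated cells. Counts that moved by over 1.5 times follow in that order of classes. With RLE size factors TAL had 754, DCT 125 and type A 61. With plain library sizes PT S1/S2 had 29, PT S3 5, injured PT 132, TAL 0 (1654 genes at an unadjusted p under 0.05, and 62 called by DESeq2), DCT 23, principal cells 25, type A 44 and type B 5. Without a filter on low counts PT S1/S2 had 1257, PT S3 0 (2158 at an unadjusted p under 0.05, and 159 called by DESeq2), injured tubule 541, TAL 13, DCT 365 and type B 160. DESeq2 called 240 in PT S1/S2, 15 in injured PT, 56 in injured tubule, 62 in TAL, 20 in DCT, 6 in principal cells and 21 in type A. With at most 20% mitochondrial UMIs PT S1/S2 had 417, PT S3 18, TAL 54, DCT 9 and type B 133. With an equal floor of 1672 UMIs PT S1/S2 had 285, TAL 119 and DCT 19. Without cells holding an immune marker UMI PT S1/S2 had 381, injured PT 45, DCT 159, principal cells 34 and type B 36. With clusters of resolution 2 PT S1/S2 had 711, injured PT 378, injured tubule 38, TAL 35, DCT 2 and type B 4. Single named genes by genotype were also compared under each alternative. Comparisons without 1 Aoah-/- library had no test and were judged by direction alone. Of all comparisons, 457 kept their direction and, where tested, their side of the threshold, 62 no longer passed, 11 newly passed and 20 changed sign. The cause was not tested.

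Among pairs of a member and a class, edgeR called Gata3 in injured tubule in every setting but resolution 2, at log2 differences of -0.98 to -1.40, and DESeq2 called it too. Without 1 Aoah-/- library, the plain log2 ratio of CPM + 1 of the other to WT, with no edgeR fit, was -1.14 to -0.87. Which other pairs were called changed with the setting, as the numbers of all genes called did above. Most pairs were called without a filter on low counts, where PT S1/S2 and DCT also had more calls over all genes. Beside Gata3, the pairs called in any setting were Tfcp2l1 in PT S1/S2, Tfcp2l1 in TAL, Pax8 in PT S1/S2, Nr1h4 in DCT, and, at resolution 2, Maf in injured PT (0.82) and in principal cells (0.68).

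Differences that changed sign had been small in most cases. With plain library sizes Maf in PT S1/S2 was at -0.02007, Pax8 in injured PT at -0.02838 and Gata3 in principal cells at -0.07386. With at most 20% mitochondrial UMIs Maf in PT S1/S2 was at -0.01963, Ppara in PT S1/S2 at 0.1148, Gata3 in principal cells at -0.1159, and in DCT Hnf4a was at 0.6532 and Nr1h4 at 0.5501. Without cells holding an immune marker UMI Ppara in PT S1/S2 was at 0.01113 and Slc22a6 in injured PT at 0.08366. At resolution 2 Pax8 in injured PT was at -0.2517, Pax2 in injured tubule at -0.0105 and Slc22a6 in injured PT at 0.2913. When 1 Aoah-/- library was left out, the plain log2 ratio of CPM + 1 of the other to WT was taken, with no edgeR fit. It was -0.02257 to -0.01762 for Maf in PT S1/S2, -0.69 to 0.1254 for Nr1h4 in PT S3 and -0.1199 to 0.06654 for Pax8 in injured PT. For Pax2 in injured tubule it was -0.07177 to 0.172, for Gata3 in principal cells -0.1741 to 0.02081 and for Tfcp2l1 in type A intercalated cells -0.02151 to 0.09892. Maf in PT S1/S2 had 1050 and 1047 CPM in Aoah-/- against 1063 in WT. Its sign thus differed between the plain ratio and the edgeR estimate before any library was left out.

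Levels moved by more than 1 SD as follows. With at most 20% mitochondrial UMIs PT S1/S2 had 310.8 CPM of Hnf4a, 70.94 of Ppara and 1289 of Maf, and principal cells 333.7 of Gata3. As means over cells Maf was at 1009 and Gata3 at 261.3 in these classes. At resolution 2 Maf was at 1079 in PT S1/S2 and Pax8 at 136.1 in injured PT. For injured against uninjured PT, the 20% limit gave Pax8 1.266, Ppara -2.315 and Maf -1.079, removal of cells with immune marker UMIs gave Maf -0.8441, and resolution 2 gave Hnf4a -0.377, Pax8 1.26, Pax2 1.027, Ppara -1.285 and Maf -0.5928. Without the cells that resolution 2 placed with fibroblasts, an alternative chosen after seeing the data, Maf was at -0.8468 and 6 other members moved by less than 1 SD. For S3 against S1/S2, the 20% limit gave Hnf4a -0.4443, Pax8 -0.5338, Pax2 -1.304, Ppara -0.6953, Nr1h4 -0.2981 and Tfcp2l1 -0.8207. Removal of cells with immune marker UMIs gave Pax8 -0.2645, Pax2 -1.411, Ppara -0.5242 and Nr1h4 0.02696, means over cells gave Pax8 -0.3986, Ppara -0.5737 and Tfcp2l1 -0.5749, and resolution 2 gave Pax8 -0.003301 and Pax2 -1.003. Nr1h4 ranged from -0.06299 to 0.09906 when 1 library was left out. Of the list genes, Abcc2 at resolution 2 (0.07491) and Slc51a (-0.01117) and Tead1 (-0.03168) at the 20% limit changed sign between the segments. The other reported differences whose values were compared under an alternative kept their sign. By genotype, the alternatives were fitted to all genes of every class. Values were compared for 23 pairs of a member and a class and for list genes named in the PT classes and injured tubule. For most other pairs, such as Tfcp2l1 in type B intercalated cells and Pax8 in TAL, it was only recorded whether they passed. For list genes named in TAL and DCT the values were not compared, so whether they keep their sign is not reported here. The TAL calls were all lost with plain library sizes, as given above.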
